A study of Homo sapiens with 6 samples.

Results

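Chromatin regions were examined that carried an ATAC-seq peak in one SLFN11-knockout library, coded CB45_KO, and none in the other two knockout libraries, coded CB45_KO_2 and CB45_KO_4. All peaks of the 6 libraries on chromosomes 1 to 22 and X were merged wherever they overlapped by 1 bp or more, which gave 32037 regions. Of these, 18869 held a CB45_KO peak and 2133 met the rule. They are called CB45_KO-restricted regions below, although 970 of them also held a peak in at least 1 parent library. The presence and absence of peaks in the knockout libraries chose these regions, so those values are a description and carry no test.

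In ATAC-seq a transposase inserts sequencing adapters into accessible DNA, and a peak caller marks places where reads pile up above the local background. Accessible regions in a T cell line are mostly promoters, enhancers and insulator sites. SLFN11 is a nuclear protein that is recruited to replication forks under stress and blocks their progress, and cells that express it are more easily killed by agents that damage DNA. Camptothecin traps topoisomerase I on DNA, and forks that run into the trapped enzyme are stalled or broken.

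The 6 groups were SLFN11 gene knockout cells with DMSO or with 100 nM camptothecin for 2 h or 4 h, and wild-type parent cells with the same treatments. Both are CCRF-CEM, an established human T lymphoblast leukaemia line, and the control for camptothecin was the solvent DMSO. There was 1 library in each group and 1 knockout line, so no value has a replicate spread, genotype and clone cannot be told apart, and no p-value is given. The lineage and the SLFN11 locus were not checked, because no hg19 annotation was used here.

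Which treatment CB45_KO received is uncertain, and the reading of the regions depends on it. The sample titles give the code CB45_KO to the DMSO sample, CB45_KO_2 to the 2 h sample and CB45_KO_4 to the 4 h sample. By these title codes the 2133 regions were called with DMSO and at neither time of camptothecin. The deposited list with the code CB45_KO is, however, recorded under the 4 h sample, that with CB45_KO_2 under DMSO and that with CB45_KO_4 under 2 h. By the recorded samples the same regions were called at 4 h of camptothecin alone, and the regions called with DMSO alone are 2994 others, those of CB45_KO_2. Codes and recorded samples matched in 0 of the 6 libraries. The parent lists are shifted in the same way. CCRF_WT is DMSO by its code and 4 h as recorded, CCRF_WT2 is 2 h by its code and DMSO as recorded, and CCRF_WT4 is 4 h by its code and 2 h as recorded. Libraries are therefore named by their codes.

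The lists differed in length. Regions numbered 18869, 20441 and 18668 in CB45_KO, CB45_KO_2 and CB45_KO_4, against 13883, 23341 and 21390 in CCRF_WT, CCRF_WT2 and CCRF_WT4. Read totals were not used here. The lowest local background recovered from the peak values, which rises with depth and with the length given to each read, was between 1.22 and 1.37 reads in the 6 libraries.

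The 2133 regions were 11.3% of the CB45_KO regions. CB45_KO_2 held 2994 regions absent from both other knockout lists, 14.6% of its regions, and CB45_KO_4 held 2102, 11.3% of its regions. Each knockout library thus had a set of its own, and the CB45_KO set was neither the largest nor the smallest. A further 1738 CB45_KO regions were shared with CB45_KO_2 alone, 857 with CB45_KO_4 alone, and 14141 with both. By the title codes, 1568 regions were called at both times of camptothecin and not with DMSO, against the 2133 called with DMSO and at neither time. By the recorded samples these counts were 857 and 2994. The first count of each pair needs a call in both camptothecin libraries, and the second a call in the DMSO library only. Their sizes therefore do not compare gain with loss.

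The restricted regions were narrow, and their peaks were low. Their CB45_KO peaks had a median width of 194 bp, with quartiles at 159 and 251 bp, against a median of 411 bp in the other 16736 CB45_KO regions. Widths ran from 135 to 733 bp. A width of 170 bp or less was found in 747 of them (35.0%), against 6.98% of the other CB45_KO regions, and 288 (13.5%) were at least 300 bp wide. More than 1 summit was listed in 33 restricted regions (1.55%) and in 28.9% of the others. The fold enrichment over local background, a value of the authors' peak caller, had a median of 4.29 against 6.11. All peaks together covered 0.467 Mb of the 8.20 Mb under CB45_KO peaks. These traits were not particular to CB45_KO. Regions held by CB45_KO_2 alone or CB45_KO_4 alone among the knockout lists had median widths of 196 and 183.5 bp. In these sets 34.7% and 41.0% were 170 bp wide or less, and the median folds were 4.22 and 4.24.

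Few reads lay under each summit. The pileup, meaning the number of reads stacked at the summit, was recovered from the deposited fold enrichment and p. Its median was 11 reads in restricted regions and 21 reads in the other CB45_KO regions. The regions of CB45_KO_2 alone and of CB45_KO_4 alone among the knockout lists also had a median of 11 reads. The lowest value was 8 reads in each of these sets. At most 9 reads were found in 565 restricted regions, and 10 to 12 reads in 899. Only 19 restricted regions had more than 30 reads (0.891%), against 24.2% of the other CB45_KO regions. The lowest background of the list, 1.27 reads, stood under 414 restricted summits (19.4%) and under 3.71% of the others. Whole groups of regions therefore share 1 value, such as the 119 regions with a fold enrichment of 3.97 and the 99 with 4.41.

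**Figure D1:**
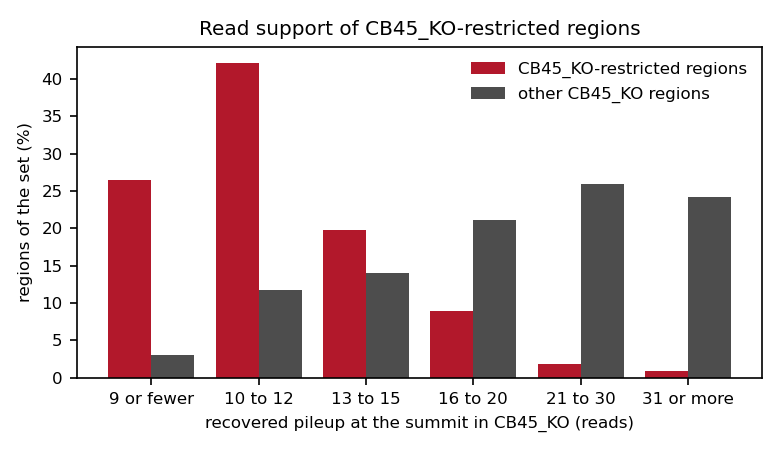
Share of regions (y axis, %) by recovered pileup at the CB45_KO summit (x axis, reads), for the 2133 CB45_KO-restricted regions and the 16736 other CB45_KO regions. The class of 10 to 12 reads holds 42.1% of restricted regions and 11.7% of the others.

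The share of CB45_KO regions that were restricted was lower the more significant the CB45_KO peak was. Of CB45_KO regions with a -log10 q of 2 to 3, 711 of 1579 were restricted (45.0%). The share was 32.4% between 3 and 4, 24.2% between 4 and 5, and 7.65% between 5 and 10. At 10 or more it was 39 of 8140 regions (0.479%). The median restricted region stood at the 14th percentile of significance in the CB45_KO list, and 73 (3.42%) stood in its upper 50%.

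The rule has an edge at the q threshold of CB45_KO and another at that of the other knockout lists. Just inside the CB45_KO threshold were chr19:47990812-47990984 (-log10 q 2.01, 12 reads over a background of 3.13) and, on chromosome 1, chr1:118261756-118261907 and chr1:220906442-220906737 (2.01 and 8 reads each). Other regions failed the rule through a peak of another knockout list at its threshold, although their CB45_KO peaks were more significant than these. The region chr14:77965069-77965368 was held by CB45_KO with 10 reads (-log10 q 2.58) and by CB45_KO_4 with 9 reads at a -log10 q of 2.00. Likewise outside was chr6:7137706-7137926, with 12 reads in CB45_KO (3.72) and 11 in CB45_KO_2 (2.00). So was chr1:168482506-168482966, with 12 reads in CB45_KO (5.18) and 8 in CB45_KO_4 (2.00). A difference of 1 read at the summit, in the list where the peak is at the threshold, can place such a region on either side.

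The parent libraries entered the choice of regions only by joining peaks into regions. A parent peak that joined a CB45_KO peak to a peak of another knockout list took that region out of the rule. Regions left out in this way hold a parent peak by construction, which lowers the share with a parent peak. By direct overlap of peaks of at least 1 bp that share was 1099 of 2262 (48.6%). Of the 2133 restricted regions, 970 held a peak in at least 1 parent list (45.5%, Wilson 95% interval 43.4 to 47.6%), against 90.0% of all CB45_KO regions. Intervals here cover counting error only, and neighbouring regions are not independent. The other 1163 (54.5%, 52.4 to 56.6%) had no parent peak and were thus called in CB45_KO alone of the 6 libraries, whereas 10.0% of all CB45_KO regions had no parent peak. The sets held by CB45_KO_2 alone and CB45_KO_4 alone among the knockout lists had a parent peak in 49.97% (48.2 to 51.8%) and 40.2% (38.1 to 42.3%) of regions. The restricted regions lay between these mirror sets and far below the CB45_KO regions that another knockout list also held, at 95.7%.

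The gap to the other CB45_KO regions was present in all 5 classes of significance. Between -log10 q of 2 and 3, 34.2% of restricted regions had a parent peak (30.8 to 37.7%), against 81.2% of the other CB45_KO regions of that class (78.5 to 83.7%). Between 5 and 10 the shares were 56.4% (51.8 to 60.9%) and 95.6% (94.99 to 96.1%). Among the 39 strongest restricted regions, 31 had a parent peak (79.5%, 64.5 to 89.2%), against 99.6% of the others. Over the 5 classes, from the lowest up, the share was 34.2%, 45.0%, 50.5%, 56.4% and 79.5% in restricted regions. It was 35.8%, 45.03%, 59.5%, 66.7% and 66.0% in the set of CB45_KO_2 alone, and 33.9%, 33.9%, 49.6%, 48.6% and 60.5% in that of CB45_KO_4 alone. By width, the share with a parent peak was 39.1% in restricted regions of 170 bp or less and 64.3% in those over 300 bp. In the other CB45_KO regions of the same widths it also rose, from 82.7% to 98.8%. The other CB45_KO regions were chosen by a second knockout list, which is a difference in selection.

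**Figure D2:**
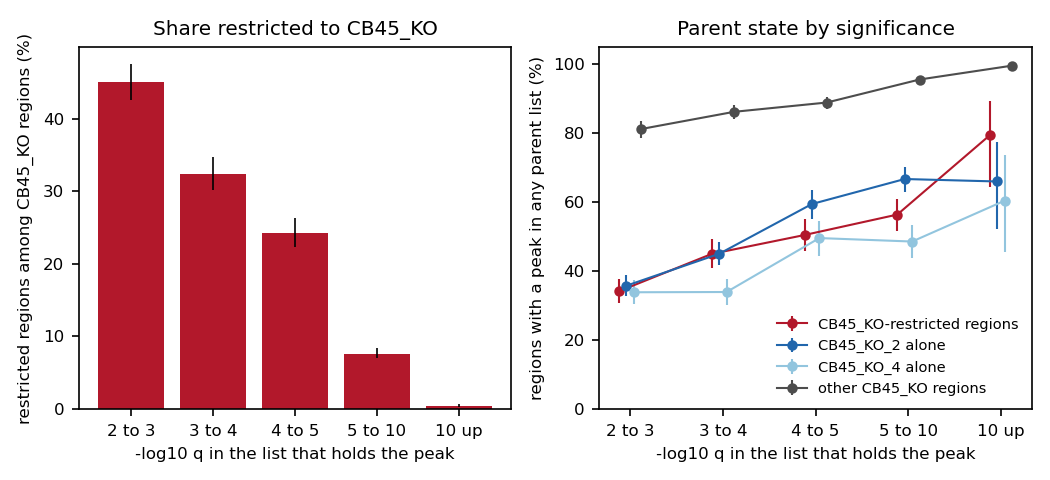
Left, share of CB45_KO regions that were restricted (y axis, %) by -log10 q of the CB45_KO peak (x axis), from 45.0% in the lowest class to 0.479% in the highest. Right, share of regions with a peak in any parent list (y axis, %) by -log10 q in the list that holds the peak, for the restricted regions, both mirror sets and the other CB45_KO regions. Bars are Wilson 95% intervals, and the restricted regions lie below the other CB45_KO regions in all 5 classes.

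Split by parent library, 188 restricted regions held a peak in CCRF_WT (8.81%, 7.68 to 10.1%), 764 in CCRF_WT2 (35.8%, 33.8 to 37.9%) and 589 in CCRF_WT4 (27.6%, 25.8 to 29.5%). The corresponding shares of all CB45_KO regions were 65.8%, 86.3% and 81.6%. CCRF_WT is the shortest list. With each of the 6 lists shortened to its 14205 most significant peaks, 1524 regions were restricted (10.8% of the CB45_KO regions there), of which 758 had a parent peak (49.7%), against 90.6% of CB45_KO regions. They held a peak in CCRF_WT, CCRF_WT2 and CCRF_WT4 in 27.3%, 28.4% and 28.3% of cases, against 79.4%, 81.5% and 79.2% of CB45_KO regions. The spread between the parent libraries was thus much smaller there, in a set of restricted regions that also changed with the shortened knockout lists.

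Each parent pattern has a reading under the title codes and another under the recorded samples. The pattern that mirrors the knockout rule, a peak in CCRF_WT and in neither other parent list, was found in 60 restricted regions (2.81%, 2.19 to 3.60%), against 1.15% of all CB45_KO regions. By the title codes these were called with DMSO and not under camptothecin in both genotypes, and by the recorded samples at 4 h alone in both. They are 7.55% of the 795 parent regions with that pattern, which are 5.73% of CCRF_WT regions. The pattern had a like share in the set of CB45_KO_2 alone (2.14%) and in that of CB45_KO_4 alone (3.38%). It was 3.19% in regions held by both CB45_KO_2 and CB45_KO_4 and not by CB45_KO. The opposite pattern, absent from CCRF_WT and present in CCRF_WT2 and CCRF_WT4, was found in 375 restricted regions (17.6%, 16.02 to 19.3%), against 17.6% of all CB45_KO regions. They are 5.93% of the 6329 parent regions with that pattern. Its share was 23.3% in the set of CB45_KO_2 alone and 14.0% in that of CB45_KO_4 alone.

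The order of these opposite patterns did not hold in lists of equal length. There the first had 202 of 1524 restricted regions (13.3%, 11.6 to 15.05%), against 5.60% of CB45_KO regions, and the second 181 (11.9%, 10.3 to 13.6%), against 7.65%. Both shares lay above those of all CB45_KO regions.

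The remaining patterns held between 18 and 279 regions. A peak in CCRF_WT2 alone was found in 279 restricted regions (13.1%), against 4.71% of all CB45_KO regions, and in CCRF_WT4 alone in 128 (6.001%), against 1.89%. CCRF_WT and CCRF_WT2 without CCRF_WT4 held 42 (1.97%), against 2.52%, and CCRF_WT and CCRF_WT4 without CCRF_WT2 held 18 (0.844%), against 0.604%. All 3 parent lists held 68 restricted regions (3.19%, 2.52 to 4.02%), against 61.5% of all CB45_KO regions. In the mirror sets the share held by all parent lists was 4.84% for CB45_KO_2 alone and 2.52% for CB45_KO_4 alone.

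**Figure D3:**
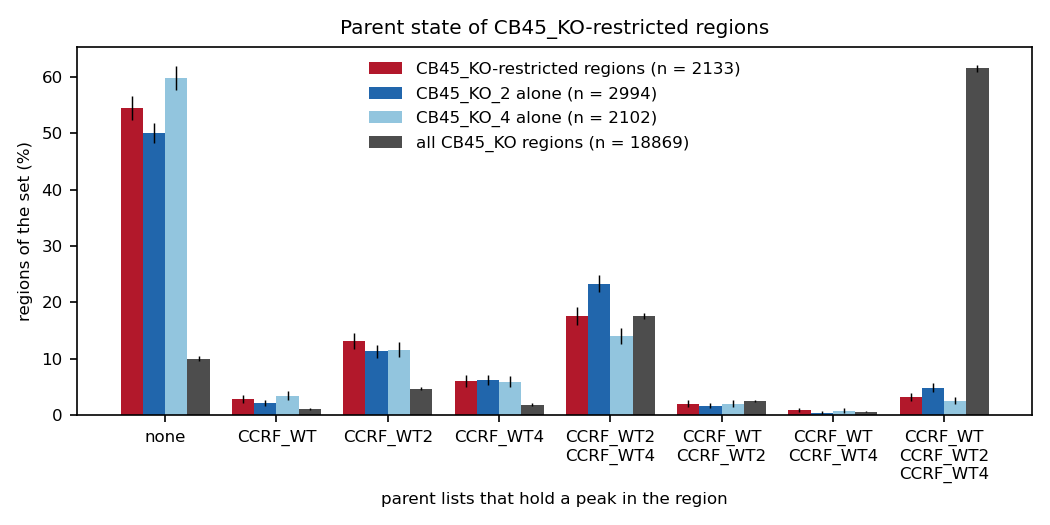
Share of regions (y axis, %) by the parent lists that hold a peak there (x axis), for the 2133 CB45_KO-restricted regions, the regions of CB45_KO_2 alone (2994) and CB45_KO_4 alone (2102) among the knockout lists, and all 18869 CB45_KO regions. Bars are Wilson 95% intervals from the lists as deposited. Of the restricted regions, 54.5% have no parent peak and 3.19% have one in all 3 parent lists, against 10.0% and 61.5% of all CB45_KO regions.

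Where a parent peak existed, it was also weak for its own list. The parent peak at restricted regions stood at a median percentile of significance of 16.6 in CCRF_WT, 24.7 in CCRF_WT2 and 22.8 in CCRF_WT4. At the other CB45_KO regions these percentiles were 56.3, 66.8 and 65.2. Of the 764 restricted regions with a CCRF_WT2 peak, 55 (7.20%) had one in the upper 50% of that list, against 71.7% of the others. Median pileups in the parent lists were 11, 14 and 15 reads at restricted regions and 19, 39 and 46 reads at the others. Parent peaks were also weak in the mirror sets. In the same order of parent lists, their median percentiles were 19.01, 28.5 and 29.9 in the set of CB45_KO_2 alone. In that of CB45_KO_4 alone they were 22.2, 25.4 and 25.1. Weak parent peaks were thus not particular to the restricted regions.

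Summits of the knockout and parent peaks could be compared where both existed. Peaks were joined into regions by overlap, so that short distances and overlap are largely fixed by that construction. The main summits of CB45_KO and CCRF_WT2 were a median of 56 bp apart in restricted regions and 45 bp in the others, and 71.9% and 77.1% were within 100 bp. The median distance to the CCRF_WT4 summit was 71 bp in restricted regions and 43 bp in the others. For CCRF_WT it was 58.5 bp and 50 bp. The peaks themselves overlapped in 98.4% of restricted regions with a CCRF_WT2 peak, in 98.0% with a CCRF_WT4 peak and in 95.7% with a CCRF_WT peak.

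By fold enrichment in CB45_KO, 3 restricted regions stood above all others. They were chr9:70076689-70076828 (18.001-fold, 45 reads, 140 bp), chr11:48946388-48946637 (12.6-fold, 46 reads, 246 bp) and chr2:133003257-133003416 (10.8-fold, 63 reads, 160 bp). No filter for repeated sequence was applied, and its part in these peaks was not tested. The chromosome 9 and chromosome 2 regions were called in no other library. The chromosome 11 region was also called in CCRF_WT4, at 14.4-fold with 48 reads, and a peak of another knockout list lay 184 bp away.

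Next came regions at moderate height, among them some of the widest. On chromosome 1, chr1:168489544-168490260 held a CB45_KO peak of 717 bp with 20 reads over a background of 1.44 (8.62-fold, -log10 q 13.6). The same region held 21 reads in CCRF_WT2 (8.65-fold) and 20 reads in CCRF_WT4 (8.17-fold) and no peak in CCRF_WT, CB45_KO_2 or CB45_KO_4. Its CB45_KO peak was the second widest in a restricted region and the highest by fold of those at least 300 bp wide. The region chr13:100834943-100835425 (483 bp, 8.52-fold, 20 reads) was also called in CCRF_WT with 8 reads and in CCRF_WT2 with 12 reads. The next were chr14:59768164-59768396 (8.06-fold, 22 reads), with 9 reads in CCRF_WT4, and chr1:171221585-171221979 (8.05-fold, 20 reads), with 8 reads in CCRF_WT2 and 11 in CCRF_WT4.

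The last places among the 10 highest were shared at 7.94-fold and 17 reads. They went to chr11:22897542-22897702, with a CCRF_WT2 peak of 11 reads, chr2:166467120-166467361, with a CCRF_WT peak of 9 reads, and chr5:178012568-178012729, with no parent peak. Further regions had the same value, among them chr6:91411226-91411481, which no parent list held. After these, the highest restricted region without a parent peak was chr19:41609196-41609410 (7.34-fold, 16 reads).

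Among regions of at least 300 bp, the next in height were on chromosomes 7 and 1. chr7:6769237-6769998 had 23 reads in CB45_KO and 27 reads each in CCRF_WT2 and CCRF_WT4. chr1:90228430-90229073 had 23 reads in CB45_KO, 9 in CCRF_WT, 30 in CCRF_WT2 and 17 in CCRF_WT4. chr7:130741919-130742500 had 19 reads in CB45_KO and 12 each in CCRF_WT2 and CCRF_WT4. These pileups are not scaled for depth, and no fold between libraries is drawn from them. The nearest peak of another knockout list lay 13832, 5022 and 48135 bp from these 3 regions.

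The widest CB45_KO peak in a restricted region, at 733 bp, was that of chr11:330591-331323. It had 17 reads in CB45_KO over a background of 2.99 and was called in all parent lists, with 15 reads in CCRF_WT, 22 in CCRF_WT2 and 20 in CCRF_WT4. Apart from the chromosome 1 region of 717 bp described above, the others of the 5 widest peaks were low. The 659 bp peak of chr4:56202358-56203127 rested on 10 reads in CB45_KO, 11 in CCRF_WT2 and 12 in CCRF_WT4. chrX:1689417-1690063 (647 bp) had 10 reads in CB45_KO and no peak elsewhere, and chr10:63198306-63198932 (627 bp) had 11 reads in CB45_KO and 16 in CCRF_WT2.

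Of the 68 restricted regions held by all parent lists, the 5 with the highest lowest parent fold were called in CB45_KO with 9 to 15 reads. In chr9:140473088-140473667 CB45_KO had 13 reads, against 18, 20 and 38 reads in CCRF_WT, CCRF_WT2 and CCRF_WT4. In chr6:154996775-154997018 it had 11 reads, against 14, 14 and 25 reads. In chr22:26899047-26899413 it had 9 reads, against 13, 16 and 15 reads. These regions stood at percentiles of 18.5, 18.4 and 11.4 in the CB45_KO list. chr19:13094366-13094749 was higher, at percentile 42.1, with 15 reads in CB45_KO and 16, 18 and 29 reads in the same parent lists. chr7:150277005-150277428 had 10 reads in CB45_KO and 12, 16 and 14 reads in the parent lists.

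Regions with opposite parent patterns were named after their values were seen. Of the 375 absent from CCRF_WT and present in both other parent lists, chr17:74099573-74100083 had 10 reads in CB45_KO, 42 in CCRF_WT2 (12.1-fold) and 49 in CCRF_WT4 (12.2-fold). chr19:55517381-55517719 had 9 reads in CB45_KO, 27 in CCRF_WT2 and 39 in CCRF_WT4. chr14:75179550-75179974 had 14 reads in CB45_KO and 28 reads in each of the same parent lists. Of the 60 regions held by CCRF_WT alone among the parent lists, chr17:81194950-81195143 was the highest there, with 14 reads in CB45_KO and 17 in CCRF_WT (7.80-fold). It was followed by chr5:146550360-146550612, with 15 reads in CB45_KO and 14 in CCRF_WT, and chr3:140782638-140782969, with 19 and 13. All 3 had between 13 and 19 reads at the summit in both lists that held them.

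Restricted regions were spread over all 23 chromosomes. The share of CB45_KO regions that were restricted was lowest on chromosome 19, at 55 of 924 regions (5.95%, 4.60 to 7.67%), and highest on chromosome 21, at 39 of 223 (17.5%, 13.1 to 23.01%). It was 15.2% on chromosome 18 (11.8 to 19.5%) and 14.6% on chromosome 13 (11.6 to 18.2%). On the gene-rich chromosomes 17, 19 and 22 together it was 7.49% (6.44 to 8.68%), and on the gene-poor chromosomes 4, 13 and 18 it was 12.8% (11.3 to 14.4%). The set of CB45_KO_4 alone had a like difference, at 6.05% and 14.4%, and the set of CB45_KO_2 alone a smaller one, at 13.8% and 15.9%. Whether these sets differ was not tested. On chromosomes 17, 19 and 22, 61.0% of restricted regions had a parent peak (53.3 to 68.2%), against 96.0% of all CB45_KO regions there. On chromosomes 4, 13 and 18 the shares were 42.3% (36.0 to 48.9%) and 87.1%.

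**Figure D4:**
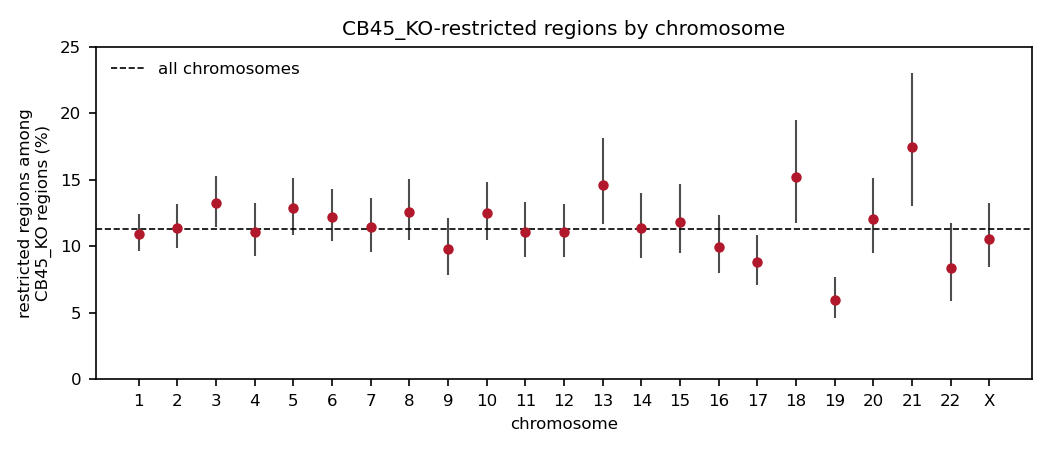
Share of CB45_KO regions that were restricted (y axis, %) by chromosome (x axis), with Wilson 95% intervals and a dashed line at the share over all chromosomes, 11.3%. Chromosome 19 lies lowest, at 5.95%, and chromosome 21 highest, at 17.5%.

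Distances to peaks of the other knockout lists were similar in the restricted regions and the mirror sets, and overlap was excluded by the rule. For restricted regions the median distance to the nearest CB45_KO_2 or CB45_KO_4 peak was 19544 bp. Of these regions, 134 (6.28%) had one within 500 bp and 713 (33.4%) within 10 kb. The corresponding distances were 22182 bp for the set of CB45_KO_2 alone and 25676.5 bp for that of CB45_KO_4 alone. The shares within 500 bp were 4.94% and 6.18%, and those within 10 kb were 30.8% and 31.1%. Such shares were not computed over all CB45_KO regions. Within 10 kb of another restricted region lay 97 of the 2133 (4.55%). The like shares were 5.21% in the set of CB45_KO_2 alone and 3.76% in that of CB45_KO_4 alone. These sets hold 2994 and 2102 regions, and a larger set has closer neighbours by its size alone. The shares were not computed over all CB45_KO regions or in sets of equal size, so nothing is drawn from their order. The 97 restricted regions formed 48 runs, 1 of which had 3 members, at chr15:51559944-51577412.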

How the data were processed

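ATAC-seq peak lists of 6 libraries were used, 1 for each genotype and treatment. The submitters' processing notes list the hg19 build and, with no roles, the tools MACS2 2.1.2, Picard 2.9.2, SAMtools 1.8, BWA 0.7.17, Trimmomatic 0.39 and Trim Galore 0.6.2. Not given in the sources used here were the shifting and extension of reads, duplicate handling and the background model, each of which can move peak edges and numbers. Each list carries 1 library code, so peaks were called per library. The authors deposited a fold enrichment per entry, a ratio of summit to background, which was used to describe and rank peaks within a list. They also deposited a -log10 p and a -log10 q, and each list ends at a q of 0.01 in the deposited files. The score deposited by the authors is derived from the q and was not used further.

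Entries on chromosome Y or the mitochondrial genome, at most 0.728% of a list, were left out, and entries that overlapped within a list were joined. Coordinates are hg19, counted from 1. Pileup and background were recovered from fold and p under a Poisson model. In each list, 99.95% or more of the recovered pileups came within 0.02 of a whole number. Steps were checked on simulated data. Shares carry Wilson 95% intervals, and with 1 library per group no test was run. Python 3.11.15, numpy 2.4.6, pandas 2.3.3, scipy 1.17.1 and matplotlib 3.10.9 were used.

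The regions, lists and comparisons were chosen with earlier results of these data known. Named regions are the 10 highest by fold, the 5 highest of at least 300 bp, the 5 widest, the 5 highest in all parent lists by their lowest fold, the 5 highest in no parent list, and 3 on each side of the threshold, with others named as chosen later. The alternatives tried were a minimum -log10 q of 5 in all lists or in CB45_KO alone, direct overlap of 1 bp or of 50% of the shorter peak, a gap of 500 bp, lists of equal length, placement by recorded sample, omission of the shortest parent list, of peaks of 170 bp or less, and of regions within 10 kb of each other. No filter for repeated sequence was applied, and no gene or sequence was assigned, because no hg19 genome or annotation was used here.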

Additional observations from a re-analysis of the deposited data

Results flagged for a closer look

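By the title codes, 375 regions had opposite calls in knockout and parent cells. By these codes, CB45_KO held them and neither knockout camptothecin library did, whereas parent cells held them at both times and not in CCRF_WT. They were flagged because each camptothecin library of one genotype lacks the peak and each of the other holds it. The difference was not tested, with 1 library per group, and the knockout direction was fixed by the choice of the regions. In the lists as deposited, the same parent pattern was found in 17.6% of the restricted regions and in 17.6% of all CB45_KO regions. It was found in 23.3% of the set of CB45_KO_2 alone and in 14.0% of that of CB45_KO_4 alone. In these lists it was thus not particular to the restricted regions. CCRF_WT is also the shortest list, with 13883 regions against 23341 in CCRF_WT2 and 21390 in CCRF_WT4. The CB45_KO peaks of the 375 regions had a median of 13 reads. By the recorded samples, the same 375 regions were called in knockout cells at 4 h alone and in parent cells with DMSO and at 2 h, and not at 4 h. In lists of equal length the pattern was found in 181 restricted regions (11.9%), against 7.65% of all CB45_KO regions.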

How the results depend on the processing

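With 1 library per group, a difference of a few reads near the threshold can decide membership, and the precision is set by a median pileup of 11 reads. The 2133 regions were 11.3% of 18869 CB45_KO regions. They became 1392 of 13960 with a -log10 q of at least 5 in all lists, and 484 of 13959 with that limit in CB45_KO alone. With 4 other peak rules or list lengths there were between 1999 and 2585, of between 18757 and 19289 CB45_KO regions or peaks. The recorded placement gave 2994 of 20441 CB45_KO_2 regions (14.6%). Shortening of all 6 lists gave 1524 of 14064 CB45_KO regions (10.8%). The share with a parent peak, 45.5%, was 60.6% with -log10 q of at least 5 in all lists, 58.3% with it in CB45_KO alone, 48.6% by direct overlap of 1 bp, 49.7% in lists of equal length, 42.7% without the parent library of fewest peaks, and 49.97% by recorded sample. It stayed within its interval for overlap of 50% of the shorter peak (46.0%) and for a gap of 500 bp (46.5%). The median fold of 4.29 was 4.22 by recorded sample and 4.40 in peaks wider than 170 bp, and the median width of 194 bp was 231 bp in such wider peaks and 196 bp by recorded sample. The share on chromosomes 17, 19 and 22 was 7.45% and 7.42% without regions within 10 kb of each other. No paired analysis was possible because each group has 1 library and the labels carry no replicate numbers. The peaks added by direct overlap of 1 bp are ones that a parent peak had joined to another peak of a knockout list, so each holds a parent peak. Besides this and what each setting leaves out, the cause of the shifts was not tested.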

Other observations

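The most significant restricted region was not among the 10 highest by fold. This region, chr2:89868559-89868834, had a -log10 q of 59.4 with 162 reads over a local background of 29.7 (5.31-fold), and was called in no other library. On the same chromosome, chr2:133029628-133029853 had 155 reads over 49.8 (3.07-fold) and no other call, and chr2:133026759-133027011 had 154 reads over 50.7 (3.00-fold). The last of these was also called in CCRF_WT, CCRF_WT2 and CCRF_WT4, with 121, 138 and 141 reads. A peak of another knockout list lay within 846 bp of each of these 3 regions, at 241, 401 and 846 bp. With chr2:133003257-133003416, 3 restricted regions of 63 to 155 reads lay between positions 133003257 and 133029853 of chromosome 2. These regions were chosen after their values were seen.

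Regions called in 1 library of all 6 numbered 1163 in CB45_KO, 1498 in CB45_KO_2 and 1258 in CB45_KO_4, against 393 in CCRF_WT, 2465 in CCRF_WT2 and 1968 in CCRF_WT4. As a share of each list this was 6.16%, 7.33% and 6.74% in the knockout libraries, against 2.83%, 10.6% and 9.20% in the parent libraries. In lists of equal length, 1377 regions were held by CB45_KO_2 alone and 1613 by CB45_KO_4 alone among the knockout lists, against the 1524 of CB45_KO, which is another order than in the lists as deposited.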
